A study of Mus musculus with 30 samples.

Results

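The microRNA miR-140 (row mmu-miR-140) was read by 1 of the 566 mouse miRNA probes of the deposited table, in all 30 samples. It was chosen because earlier work on these data had found it high in aorta and low in fat, so its levels in these tissues are given as a description with no test. The samples were from C57BL6 males, an inbred laboratory strain. From 4 to 20 weeks of age they ate either normal chow (NCD) or a diet holding 60% fat (HFD), and the abdominal aorta (AA, n = 3 per diet) and the mesenteric adipose tissue around the intestine (MAT, n = 5 per diet) were taken. Pre-adipocytes from the stromal cells of mesenteric fat were turned into adipocytes in culture (MAT-Ad) and kept for 24 h with PBS or with LPS, a lipopolysaccharide of bacterial walls, at 1 µg/ml (n = 4 per treatment). The labels mark the cultured samples as NCD-fed. The medium of such cultures gave exosomes, small released vesicles (MAT-Ad-EX, n = 3 per treatment). Sample numbers are given without word on separate mice or cultures, so each p-value covers only the spread seen among these samples, and that spread may be technical.

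miRNAs are short RNAs that guide repression of matching messenger RNAs, and each is cut from a hairpin precursor that can yield an RNA from either arm. miR-140 lies within the gene Wwp2, which encodes a ubiquitin ligase, and is best known from cartilage, where the transcription factor SOX9 drives its expression. Mice that lack it have skeletal defects, and the cartilage-degrading protease Adamts5 is among its targets. Its 5p arm has also been studied in pulmonary artery smooth muscle in rats and humans.

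The hairpin and its listed mature arm are shown because the probe's name gives no arm. The hairpin lies at chr8:107551244-107551313 on the plus strand (RefSeq, GRCm38.p6), within the bounds of Wwp2, and the capitals mark miR-140-3p. In the mature sequence the capitals mark the seed, bases 2 to 8, which chooses targets. Of 1738 mature mouse miRNAs in the RefSeq table, 1 other, miR-497b, holds the same 7 bases, and the deposited table has no row under that name.
mmu-mir-140 hairpin: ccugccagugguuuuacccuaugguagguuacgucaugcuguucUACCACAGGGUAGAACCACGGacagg
mmu-miR-140-3p: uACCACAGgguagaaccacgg
mmu-miR-497b: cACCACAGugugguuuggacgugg
The table's row carries the name miR-140 without an arm suffix, no other row bears the name, and the sources used here do not give the arm that the probe reads. The marked arm, its seed and the match with miR-497b may therefore not apply to what the probe reads.

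The 6 aortas held the highest miR-140 signals of all samples. In chow aorta the deposited values were 2808, 1827 and 1694 in replicates 1 to 3, a mean of 2110 ± 609 (SD, n = 3). In HFD aorta they were 1600.4, 2965 and 2776, a mean of 2447 ± 739 (SD, n = 3). Chow and HFD aortas overlapped, with replicate 1 the high one on chow and the low one on HFD.

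Mesenteric fat held a lower and well measured level. The chow samples read 130.1, 280.1, 181, 243 and 175, a mean of 202 ± 59.3 (SD, n = 5). The HFD samples read 258, 279, 173, 302 and 282, a mean of 259 ± 50.3 (SD, n = 5). The diets overlapped, and all 10 samples lay over the detection limit of 29.8, which is the mean plus 2 SD of the negative controls.

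Cultured adipocytes held little miR-140. The PBS samples read 1.56, 23.9, 13.9 and 9.97, all below the limit. The LPS samples read 19.9, 72.6, 26.5 and 3.91, and only replicate 2 lay over the limit. In exosomes miR-140 was at the floor of the table in all 3 PBS and all 3 LPS samples.

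**Figure D1:**
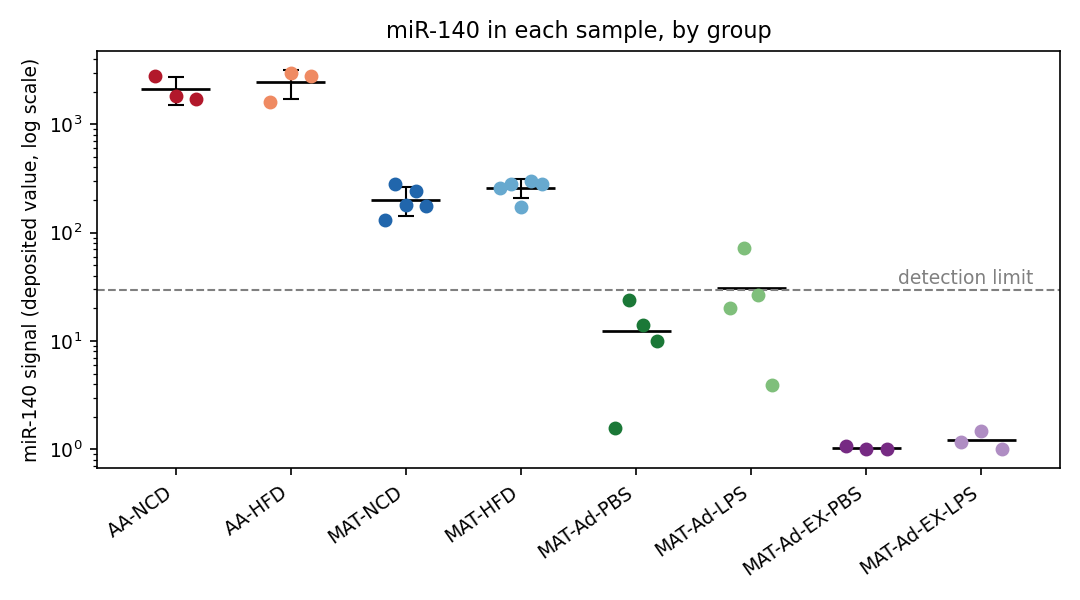
Deposited miR-140 signal on a log axis for each of the 30 samples, in 8 groups; points are samples, horizontal lines are means, bars are SD (drawn where all samples of a group lie over the limit) and the dashed line is the detection limit of 29.8. The 6 aortas lie between 1600.4 and 2965, the 10 fat samples between 130.1 and 302, and the exosomes at the floor.

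The order of the group means was HFD aorta, chow aorta, HFD fat, chow fat, LPS adipocytes and PBS adipocytes, then exosomes. Within each neighbouring pair of the same sample kind the samples overlapped, which alone does not settle whether the pairs differed. No aorta overlapped with any fat sample, and no fat sample overlapped with any cultured sample.

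On the deposited scale the aorta held about an order of magnitude more miR-140 than fat on either diet, and the size of this difference depended on the scaling. From the mean log2(value + 1) miR-140 was 10.5-fold higher on chow and 9.26-fold higher on HFD, log2 differences of 3.39 and 3.21. After centring each sample on its median miRNA the log2 differences were 5.18 and 5.09, and after scaling to the 100 most abundant miRNAs 4.91 and 4.95. The lowest chow aorta was 6.05 times the highest chow fat sample, and the lowest HFD aorta 5.30 times the highest HFD fat sample. All aortas carry the letter C and all fat samples the letter A in their descriptions, so an effect of tissue and one of that letter's meaning cannot be told apart. In bulk tissue, fewer cells of a type and less RNA per cell cannot be told apart either.

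miR-140 had the largest difference toward aorta of any miRNA over the detection filter, which is the pattern it was chosen for. On chow the next was miR-196b at 2.16, among 155 miRNAs with a median of -1.96. On HFD the next was miR-2141 at 2.08, among 165 with a median of -1.96. Only 20 of the 155 and 21 of the 165 had a higher mean log2 value in aorta.

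**Figure D2:**
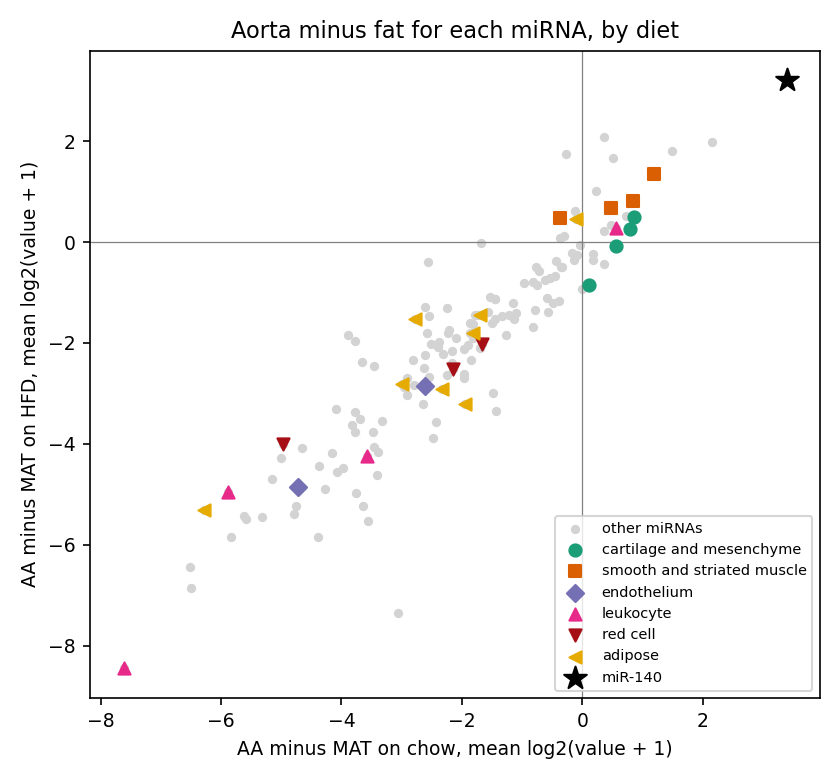
Difference in mean log2(value + 1) between aorta and mesenteric fat on chow (horizontal) and on HFD (vertical) for the 151 miRNAs that passed the detection filter in both; coloured symbols are the marker lists and the star is miR-140. miR-140 lies at 3.39 and 3.21, farther toward aorta on both axes than every other miRNA drawn. Endothelial and red cell markers and 3 of 4 leukocyte markers lie toward fat, as do most miRNAs.

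Because aorta and fat differed in total signal, miR-140 was also expressed as a share of all mouse miRNA signal, which no factor per sample can change. The shares in chow aorta were 0.978%, 1.01% and 0.969%, and in HFD aorta 0.723%, 1.13% and 0.984%. In fat they ran from 0.0435% to 0.0833% on chow, with a median of 0.0670%, and from 0.0441% to 0.0829% on HFD, with a median of 0.0724%. The mean share was thus 15.2 times as high in aorta as in fat on chow and 14.0 times on HFD. Ordered by signal within each sample, miR-140 stood at place 19 to 21 of 566 in the 6 aortas and at place 68 to 86 in the 10 fat samples.

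The chow aortas were far more alike in share than in deposited value. The coefficient of variation over the 3 samples was 28.9% for the value and 2.23% for the share. Of the 80 miRNAs over the limit in all 3, none had a smaller variation in share, and their median was 18.6%. In HFD aorta the variation of the share was 21.8%, and 65 of 86 miRNAs had a smaller one. In fat it was 27.2% on chow and 25.2% on HFD, against medians of 20.2% and 24.9% over 133 miRNAs each.

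The authors multiplied each sample by a factor, and in chow aorta the order of the replicates changed with it. It ran from 0.603 to 2.40 in the 6 aortas and from 0.784 to 1.27 in fat. With the factor undone miR-140 read 1171, 1956 and 2147 in chow aorta replicates 1 to 3, so that replicate 1 went from highest to lowest. HFD aorta then read 1076, 4922 and 2534, with its replicates in the same order as before. LIG_POS_A, a spiked control for the joining of tags to miRNAs, was 50714 in chow aorta replicate 1, 4295 to 8159 in the other 5 aortas and 15316 to 30418 in fat. Its part in the result was not tested. Without chow aorta replicate 1 the chow difference was 3.17, against 3.39 with it.

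**Figure D3:**
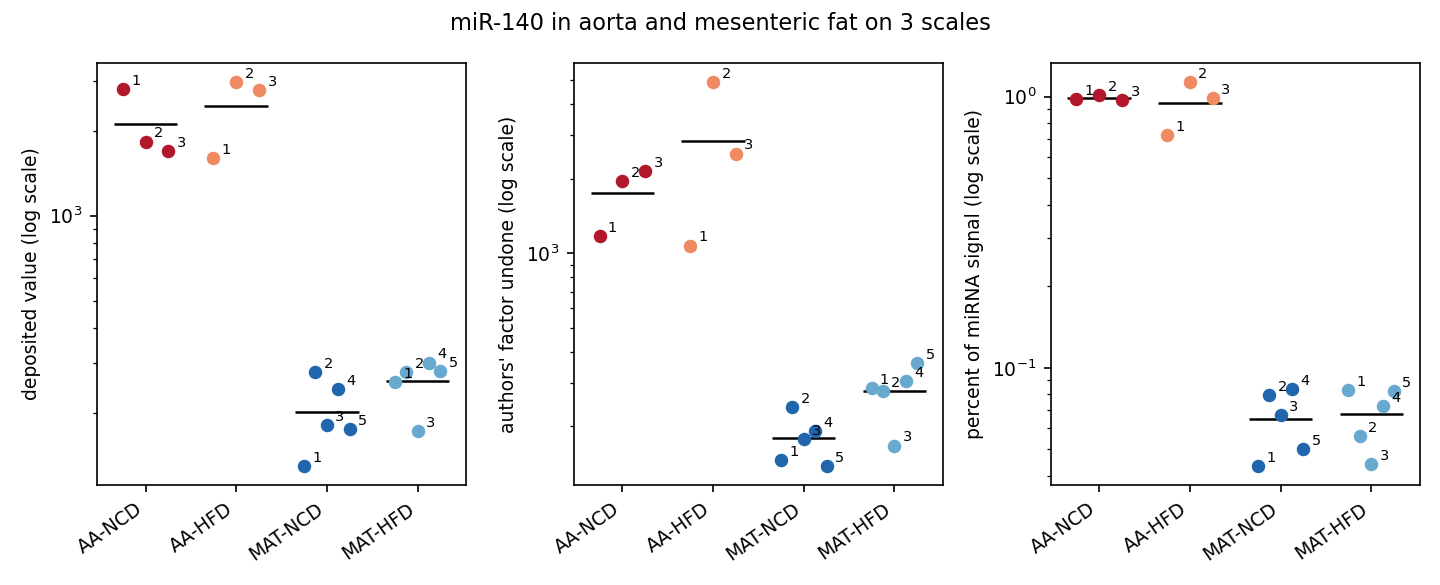
miR-140 in the 16 tissue samples on log axes as deposited (left), with the authors' factor undone (middle) and as a percent of total mouse miRNA signal (right); points are samples, numbers beside them the replicate and horizontal lines the means. Aorta and fat stay apart on every scale, and the 3 chow aortas come together at 0.969% to 1.01% on the right.

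The gap between tissues stood on each of these scales. With the factor undone the lowest chow aorta was 4.87 times the highest chow fat sample, and the lowest HFD aorta 2.99 times the highest HFD fat sample. Relative to LIG_POS_A in the same sample, miR-140 was 5.54% to 42.5% in chow aorta and 0.560% to 0.998% in chow fat. On HFD it was 20.4% to 49.1% in aorta and 0.569% to 1.68% in fat.

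Counting error in the tissues could be given only as a lower bound. The signal above background behind miR-140, with the factor undone, gives a counting error of 1.43% to 3.05% per aorta and 5.27% to 8.49% per fat sample. The spread of the deposited values between samples was larger than this in all 4 tissue groups. The spread in share was also larger in 3 of them. In chow aorta, at 2.23%, it lay within the range of the counting errors, which were 2.92%, 2.26% and 2.16%. These errors cover counting only and leave out the background that was taken off.

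The tissue markers were set beside miR-140 with 6 marker lists. miR-143 and miR-145, clustered miRNAs abundant in smooth muscle, were over the limit in all 16 tissue samples. miR-145 had means of 63868 ± 24698 in chow aorta and 37808 ± 20123 in chow fat (SD, n = 3 and 5), log2 differences of 0.84 on chow and 0.82 on HFD. miR-143 differed by 0.47 and 0.67. Within the same sample miR-140 was 3.04% to 3.57% of the miR-145 signal in chow aorta and 0.247% to 1.33% in chow fat, and 16.2% to 20.5% of miR-143 against 1.36% to 3.64%. On HFD these ranges were 3.09% to 4.42% against 0.245% to 2.40%, and a mean of 17.3% ± 0.998 against 1.22% to 6.62%. Such ratios are read between samples only, since probes differ in efficiency. Aorta and fat did not overlap in any of these 4 ranges.

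The muscle list had 4 of 8 members over the limit in every chow aorta, and its summed signal was 58654 to 110503 in chow aorta, 61692 to 86666 in HFD aorta, 25359 to 85131 in chow fat and 16278 to 93808 in HFD fat. miR-1, a miRNA of heart and skeletal muscle, was over the limit in all 16 tissue samples, at 479 ± 57.7 in chow aorta and 697 ± 386 in chow fat, and at 709 ± 204 and 765 ± 647 on HFD. Its aorta-minus-fat log2 difference was -0.37 on chow and 0.47 on HFD. miR-133a, another miRNA of heart and skeletal muscle, had the largest difference of the 4, at 1.19 on chow (239.5 ± 23.7 in aorta and 126 ± 89.9 in fat) and 1.35 on HFD. miR-133b, miR-208a and miR-208b were below the limit in all tissue samples. The part of muscle cells in the miR-140 difference was not tested.

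The list of cartilage and mesenchyme miRNAs gave 8 rows besides miR-140. miR-455 and both arms of miR-675, which are known from cartilage, were below the limit in all 16 tissue samples, a point noted after their values were seen. miR-199a-3p and miR-199a-5p, from a mesenchymal hairpin, and miR-27a, which opposes adipocyte differentiation, were over it in all. Their aorta-minus-fat log2 differences on chow were 0.79, 0.12 and 0.85, and on HFD 0.26, -0.85 and 0.50. The list's median was 0.68 over 4 members on chow and -0.08 over 5 on HFD, against -1.96 over all miRNAs in each case. Its summed signal was 10222 to 12205 in chow aorta and 5743 to 7703 in chow fat, and 14057 to 15002 in HFD aorta and 8613 to 15664 in HFD fat.

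Most markers of blood and endothelium lay the other way, with 1 exception in the leukocyte list. So did most miRNAs, since only 20 of 155 on chow and 21 of 165 on HFD were higher in aorta. On chow the list medians were -3.67 for endothelium, -4.74 for leukocytes, -2.15 for red cells and -2.14 for adipose. The median over all miRNAs was -1.96. miR-126-3p, the main endothelial miRNA, was 2932 ± 369 in chow aorta and 18153 ± 3217 in chow fat, and miR-140 was 56.8% to 85.8% of it in chow aorta and 0.821% to 1.60% in chow fat. The summed leukocyte list was 465 to 1327 in chow aorta and 4549 to 25461 in chow fat, with miR-142-3p below the limit in 5 of 6 aortas. On HFD it was 405 to 888 against 5803 to 26549. The exception was miR-142-5p, at 452 ± 390 in chow aorta and 249.6 ± 67.5 in chow fat, with log2 differences of 0.56 on chow and 0.28 on HFD. Its mean was also 237 ± 10.9 in PBS adipocytes and 207 ± 47.9 in PBS exosomes. The summed red cell list was 765 to 1852 against 2864 to 8144 on chow, and 937 to 1775 against 2918 to 60039 on HFD. The summed adipose list was 5571 to 6812 in chow aorta and 12012 to 14026 in chow fat. On HFD it was 7269 to 8071 against 9369 to 16148. miR-193 of that list was below the limit in all 6 aortas. miR-30c of the same list was 4281 ± 646 in chow aorta and 4643 ± 794 in chow fat. Its log2 difference was -0.11 on chow and 0.46 on HFD, where it was the 1 adipose member of 8 higher in aorta.

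The first tested comparison asked whether the high-fat diet changed miR-140 in mesenteric fat. The HFD mean was 259 ± 50.3 against 202 ± 59.3 on chow, and 4 of 5 HFD samples read above 4 of 5 chow samples, with HFD replicate 3 at 173 and chow replicate 2 at 280.1 as the exceptions. The log2 difference was 0.38 ± 0.25 (SE), with a 95% interval of -0.17 to 0.93, and did not pass (limma adjusted p = 0.316). Of 157 miRNAs tested 15.3% passed, and the median log2 difference over all of them was 0.31, so miR-140 lay 0.07 above it. As a share of miRNA signal the means were 0.0676% ± 0.0170 on HFD and 0.0647% ± 0.0176 on chow (exact permutation test, two-sided p = 0.786, adjusted 0.9 over 3 comparisons). With the authors' factor undone the difference was 0.63 (adjusted p = 0.0717, unadjusted p = 0.0292), the smallest adjusted p among 23 alternatives.

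The marker lists were read in the same comparison. Of all 157 miRNAs tested 70.7% were higher on HFD and 15.3% passed in either direction. In the cartilage and mesenchyme list all 4 tested members were higher and 3 passed. The list median was 0.90 against 0.31 over all miRNAs. miR-199a-3p went from 2422 ± 296 to 4704 ± 866 (adjusted p = 0.0107), miR-199a-5p from 1094 ± 218 to 2334 ± 647 (adjusted p = 0.0222) and miR-27a from 2973 ± 435 to 5402 ± 1039 (adjusted p = 0.0222). The endothelial miR-126-3p (adjusted p = 0.0402) and the myeloid miR-223 (adjusted p = 0.0259) were also higher and passed, which makes 1 of 2 and 1 of 4 in their lists. The other 3 leukocyte members were lower on HFD and did not pass. The leukocyte list's median was -0.38, against 0.31 over all miRNAs. None of 4 muscle, 3 red cell and 8 adipose members passed. The summed endothelial list was 16007 to 22613 on chow and 22851 to 34485 on HFD, and the part of these cells in the diet result was not tested. Of 23 alternatives miR-199a-3p kept its call in 21, miR-199a-5p and miR-27a in 15, miR-223 in 12 and miR-126-3p in 11. miR-199a-5p, miR-27a, miR-126-3p and miR-223 each lost it without chow replicate 1, 3 or 4 or HFD replicate 2 or 4, with adjusted p of 0.0506 to 0.121. miR-126-3p and miR-223 lost it also without HFD replicate 5 (0.0691 and 0.0669).

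In the aorta miR-140 did not pass the same test. The log2 difference was 0.20 ± 0.33 (SE), with a 95% interval of -0.61 to 1.01 (limma adjusted p = 0.908). Of 99 miRNAs tested 0% passed, with 11 at an unadjusted p under 0.05, and the median log2 difference was 0.24. The mean share was 0.945% ± 0.206 on HFD and 0.986% ± 0.0220 on chow (exact permutation test, two-sided p = 0.9, where 0.1 is the smallest that 3 against 3 allows). The sign of the log2 difference turned to -0.05 when samples were scaled to their 100 most abundant miRNAs. With limma's sample weights it was 0.57, with an interval of 0.02 to 1.11 (adjusted p = 0.141).

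**Figure D4:**
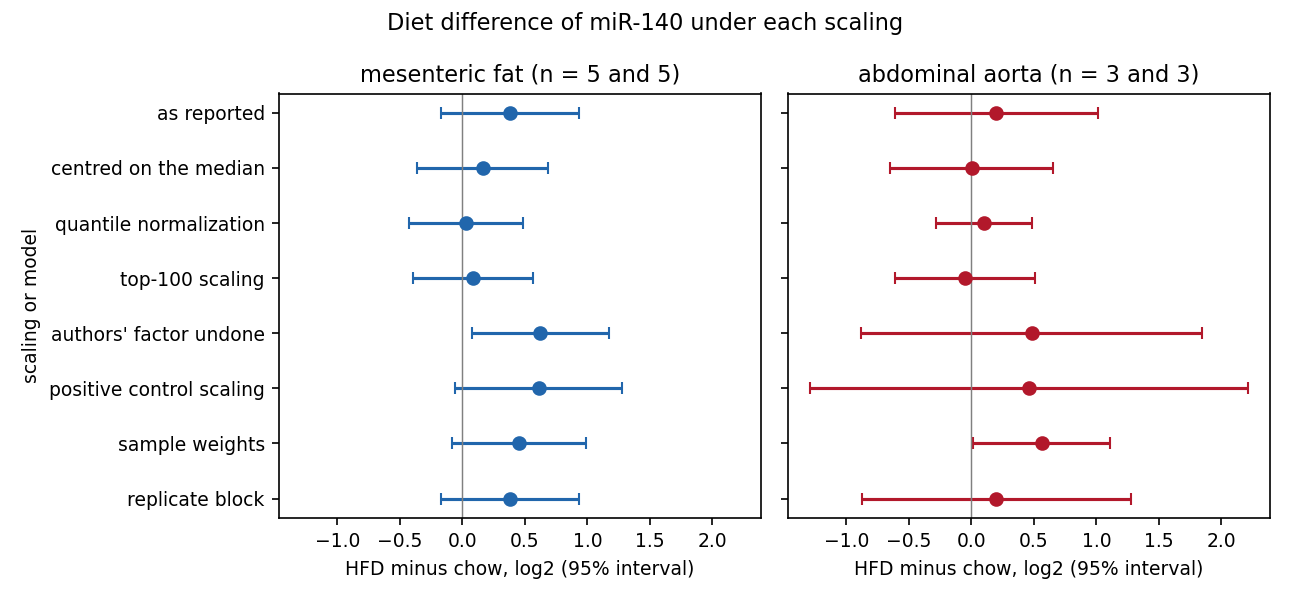
Difference of miR-140 between HFD and chow on the log2 scale in mesenteric fat (left) and abdominal aorta (right) under 8 scalings or models; points are estimates and bars 95% intervals from limma. In fat the estimates run from 0.03 to 0.63, in aorta from -0.05 to 0.57, and all but 1 interval in each tissue span 0.

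Whether the diet effect differed between the tissues was tested in 1 fit over the 16 tissue samples. The effect in aorta minus that in fat was -0.18 ± 0.44 (SE), with a 95% interval of -1.11 to 0.75 (limma adjusted p = 0.967). Of 175 miRNAs tested 1.71% passed. The sign turned without chow aorta replicate 1 (0.04) or HFD aorta replicate 1 (0.10), so these data give no direction.

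In cultured adipocytes the comparison of LPS with PBS was not fitted for miR-140, since 1 of 8 samples lay over the limit and 4 were needed. The share of miRNA signal was 0.0258% ± 0.0192 after LPS and 0.0140% ± 0.0101 after PBS (SD, n = 4 each; exact permutation test, two-sided p = 0.343, adjusted 0.9). Same-numbered cultures deviated together, and paired by number the share was higher after LPS in 3 of 4 pairs (exact sign-flip permutation test, two-sided p = 0.375, where 0.125 is the smallest that 4 pairs allow). The groups overlapped and most values were below the limit, so no fold is given and the share tests settle no direction. The 2 endothelial and 3 red cell markers were below the limit in all 8 cultured samples, as was miR-1, while miR-145 read 2041 ± 475 and 2286 ± 1422. Chow fat held at least 6.36-fold more miR-140 than PBS adipocytes, with the PBS values set to the limit. This bound rests on the deposited scale: total miRNA signal was 70149 to 102148 in PBS adipocytes and 270569 to 351783 in chow fat. Scaling to the 100 most abundant miRNAs gave a log2 difference of -0.26 for adipocytes minus fat. That value too was made with the PBS values set to the limit, so it is not a measured difference. By share, PBS adipocytes ran from 0.00185% to 0.0244%, below every chow fat sample.

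In exosomes miR-140 was not over the limit in any of the 6 samples. Total miRNA signal was 1796 to 2861 in PBS exosomes and 5753 to 33349 in LPS exosomes. The highest total was that of LPS replicate 2, which had 67 miRNAs over the limit. Low depth and absence of miR-140 cannot be told apart here.

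The miRNAs whose pattern was most like that of miR-140 were sought among 124 miRNAs that lay over the limit in at least 12 of the 24 tissue and cell samples. By Pearson correlation of log2(value + 1) over the 24 samples these were miR-27a (0.91), which shares a cluster with miR-23a, miR-23b (0.89), miR-145 (0.88), miR-143 (0.88) and miR-23a (0.87). The 24 points share the split into aorta, fat and culture and the low total signal of the cultures. Over the 16 tissue samples the same correlations were 0.64, 0.54, 0.46, 0.43 and 0.41. After subtraction of each group's mean the closest were miR-652 (0.85), miR-484 (0.75), miR-19b (0.72), miR-148b (0.68) and miR-127 (0.68). Over the tissue samples alone these read 0.18, 0.57, 0.74, 0.76 and 0.17, so miR-652 and miR-127 did not follow miR-140 closely in the tissues. In the cultures miR-140 was mostly below the limit, and miR-652 was below it in all 8 cultured samples. miR-484, miR-19b, miR-148b and miR-127 were each over it in at most 1 of 4 PBS and 3 of 4 LPS samples.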

How the data were processed

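The authors deposited 1 table of signal values for 626 probes in 30 samples. The labels name a fluorescent barcode and a biotin moiety as the label. The low values show how the deposited signal was made. A background was taken off and the rest was floored at 1. For all but the positive and negative controls it was then multiplied by 1 factor per sample. Where the factor was under 1, the lowest deposited value was still 1. The factor was found from the even spacing of the values and refined on larger ones; all values under 60 lay within 0.1 of a whole multiple after an offset per sample. The values are therefore not counts. What the factor was based on is not stated.

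Groups came from the sample titles. Tests used limma 3.58.1 in R 4.3.3 on log2(value + 1), fitted over all miRNAs above the limit in at least as many samples as the smaller group holds, with Benjamini-Hochberg adjustment and calls under 0.05. The members, lists and tests were chosen with earlier results of these data known. Named miRNAs were those most like miR-140 by correlation, 3 members per list with the highest tissue signal and list members that passed; other names were chosen after their values were seen. The limit was not multiplied by the factor, so it stands for 12.4 units above background in chow aorta replicate 1 and 49.5 in HFD aorta replicate 2. Same-numbered samples deviated together only in the cultures (correlations of 0.504 to 0.875), where miR-140 did not pass the filter and its share was tested both unpaired and paired. In fat the correlations were -0.632 to 0.271 and in aorta -0.234 to 0.101. The fit was tested on simulated data.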

Additional observations from a re-analysis of the deposited data

How the results depend on the processing

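The diet difference in fat kept its sign and stayed short of the threshold in all 23 alternatives, from 0.03 to 0.63, and from 0.24 to 0.52 without single samples. In aorta it stayed short of the threshold in all 19, from 0.04 to 0.48 without single samples, and turned to -0.049 with top-100 scaling. The difference between tissues turned sign at 0.016 after centring on the median, 0.019 after quantile normalization and 0.038 with sample weights, and ran from -0.345 to 0.099 without single samples. The replicate block left these 3 at 0.381, 0.20 and -0.181, with adjusted p of 0.314, 0.964 and 0.982, and took the miRNAs that passed in fat from 24 to 8 of 157, with miR-199a-3p at 0.0537. The difference in share ran from -0.0024 to 0.00876 percentage points in fat and from -0.133 to 0.0708 in aorta without single samples. The log2 difference between aorta and fat moved on chow and HFD to 5.18 and 5.089 after centring on the median, 4.585 and 4.646 after quantile normalization and 4.911 and 4.954 with top-100 scaling. Relative to miR-145 it was 2.559 and 2.399, to miR-143 2.926 and 2.546, to miR-126-3p 6.019 and 6.079, and to LIG_POS_A 4.656 and 4.829, which were chosen after seeing the data. PBS adipocytes minus chow fat, at -2.669 as reported, was -2.207 with a pseudocount of 16, -0.597 after centring, -1.154 after quantile normalization, -0.262 with top-100 scaling and -4.277 with values left as deposited, a setting chosen after seeing the data. The share of miRNAs that passed ran from 2.30% to 39.5% in fat, from 0% to 0.962% in aorta and from 0.883% to 4.57% for the difference over these settings. LPS in cultured adipocytes, fitted without the filter on low values, gave an adjusted p of 0.894. Exosome values at the floor allowed no alternative. Low signal limits all statements on cultures and exosomes.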
